A study of Mus musculus with 2 samples.

Results

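The cells described here are 92 mouse CD8 T cells that share the T cell receptor beta chain (TRB) with the CDR3 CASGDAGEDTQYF. They were chosen by sequence alone: a cell belongs to the family if its RNA barcode carries exactly 1 distinct productive TRB and that TRB has this CDR3. They were set against the other 3790 cells with exactly 1 productive TRB. The family made up 2.37% of the 3882 cells with 1 TRB (95% exact binomial interval 1.91% to 2.90%), out of 10338 cells kept in the RNA library. By size it was the ninth of 424 families, with 93 cells in the next larger and 77 in the next smaller family, so its place in that order is within counting error of its neighbours. The largest family held 883 cells.

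All cells are GD2TIF cells: T cells of a Cas9 transgenic mouse, infected after activation with a retrovirus that directs the nuclease to Bcor and Zc3h12a and delivers 14g2a, which is a CAR (chimeric antigen receptor) that binds the ganglioside GD2. C57BL/6 mice with an intact immune system received 1000000 of them each, and CD8+Thy1.1+ cells were sorted from spleen 2 months later. There is 1 RNA library and 1 TCR library from the same cells, with no other group, and the number and age of the mice are not given in the labels. No test between groups of cells was therefore possible: levels are unique molecular identifiers (UMIs), summed and given per 1000000 UMIs of the same cells (CPM), and a gene is counted as higher or lower by the size of its fold alone, and every interval is a 95% interval that covers counting error only. UMIs of 1 cell are not independent of each other, so these intervals are too narrow for genes whose UMIs sit in few cells.

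A T cell receptor is a pair of chains, alpha (TRA) and beta, each assembled from V, J and, for beta, D segments with untemplated bases at the joins. The CDR3 spans the join and contacts the antigen. Because the join is made in a developing T cell and is passed to its daughters, cells with the same TRB and TRA sequences are usually taken as progeny of 1 cell. CD8 T cells that have met antigen range from cells that keep Tcf7 and recirculate through lymphoid tissue to effector cells that carry granzymes and chemokines such as Ccl5.

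The sequences below are those that define the family and its nearest neighbour, shown because the rule rests on them. The first is the CDR3 of the family's TRB (mouse chromosome 6), as found in 91 of the 92 cells; the second is that of the remaining cell, with its only different base in a capital. The third is the nearest of the 69 other TRB sequences of the same length, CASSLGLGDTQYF, which belongs to the fifth largest family of 151 cells. Capitals in the first and in the nearest sequence mark the 8 of 39 bases at which they differ.
Family TRB: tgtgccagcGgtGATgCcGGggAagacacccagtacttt
Family TRB, 1 cell: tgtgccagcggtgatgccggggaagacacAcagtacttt
Nearest other TRB: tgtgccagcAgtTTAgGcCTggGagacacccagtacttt
Family main TRA: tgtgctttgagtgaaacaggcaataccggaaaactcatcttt

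The base that differs in the single cell leaves the amino acids as they are. The J segment was TRBJ2-5 in all 92 cells, and the constant segment was TRBC2 in 91 cells, with no call in the remaining cell. The V segment was given jointly as TRBV12-2 and TRBV13-2 in 79 cells and as TRBV13-2 in 13. In the RNA library, which is counted apart from these contigs, Trbc1 stood at 420 CPM in the family against 3447 in the other cells, and Trbc2 at 4021 against 3658. Trbv13-2 stood at 54.6 against 14.6 CPM, from 10 UMIs in the family. Trbv12-2, the other segment of the joint call, stood at 60.0 against 30.2 from 11 UMIs, a fold of 1.99 (0.981 to 3.62).

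The last sequence above, 42 bases on mouse chromosome 14, encodes the alpha chain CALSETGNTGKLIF and was the family's main TRA. It was found in 55 of the 92 cells (59.8%, 49.0% to 69.9%), joined from TRAJ37 in all 55 and with TRAV12D-2 called in 52. Of the other cells with 1 TRB, 17 of 3790 carried it (0.449%), 9 of them in the largest family and 7 in the second. No TRA was found in 12 family cells. The remaining 25 cells (27.2%, 18.4% to 37.4%) carried only other alpha chains, among them those typical of larger families: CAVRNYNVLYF of the largest family and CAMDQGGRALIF of the fourth were each in 8 family cells, counting cells with more than 1 TRA. A CDR3 of a large family lay on a contig marked as not productive in 22 of the 92 cells (23.9%). In the opposite direction, 103 of the 3790 other cells (2.72%) held the family's CDR3 on such a contig, with a median of 7 UMIs against 16 for the family's productive contig. Whether barcodes that hold chains of 2 families come from more than 1 cell was not tested, so the main results are also given for the 3 kinds of family cell apart.

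The family cells were slightly shallower than the rest, with a median of 1902.5 UMIs (869 to 5344) against 2074.5, and 947.5 against 1036.5 genes. The median mitochondrial share was 3.31% against 3.45%. Together the 92 cells held 183308 UMIs, so that 1 UMI is worth 5.46 CPM and a count of 0 allows up to 16.4 (3 UMIs). The 15 T cell identity genes summed to 10332 CPM in the family against 9177 in the other cells and 8548 to 10021 over 18 other families. Of these, Cd3e, part of the receptor complex, stood at 1522 against 1520 and Ptprc, the leukocyte phosphatase CD45, at 1789 against 1718. Among the defining markers of other cell types, Cd79a, Ms4a1, Cd4, Foxp3, Ncr1, Csf1r and Lyz2 were all at 0 UMIs. The summed level of the 12 B cell markers was 649 CPM in the family against 688 in the other cells and 148 to 1186 over 18 other families; at least 2 of them were found in 14 of 92 family cells and 720 of 3790 others, 6 of the 12 were at 0, and the largest part was Ighm at 426 against 456. The 8 CD4 and regulatory T cell markers summed to 420 CPM against 387 (181 to 602 over the other families), with 4 at 0 and most UMIs from Ikzf2 and Ctla4. The 8 measured monocyte and macrophage markers summed to 38.2 against 21.8 (0 to 45.6), from 7 UMIs of Cd68 and Itgam. The 8 measured NK markers summed to 245 against 351, with 7 at 0 and all UMIs from Eomes. Ebf1, a factor of B cell development, was an exception with 14 UMIs in 7 cells, 76.4 against 24.1 CPM.

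Of 5802 genes with at least 200 UMIs over both sides, 542 (9.34%) were at least 1.5-fold higher in the family and 1128 (19.4%) were lower by that factor, with a median fold of 0.961. A gene with 200 UMIs has 4.17 expected in the family; among 2968 genes with at least 500 UMIs, 145 were higher and 375 lower. The 20 higher and 15 lower genes named below had the folds with the bound nearest to 1 that lay farthest from it. The other families give a second measure of spread: over 19 families of at least 30 cells, 3.86% of the genes tested were highest and 3.5% lowest in this family. Among the 20 higher genes 15 were highest here, and among the 15 lower genes 10 were lowest, which follows in part from how they were picked.

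**Figure D1:**
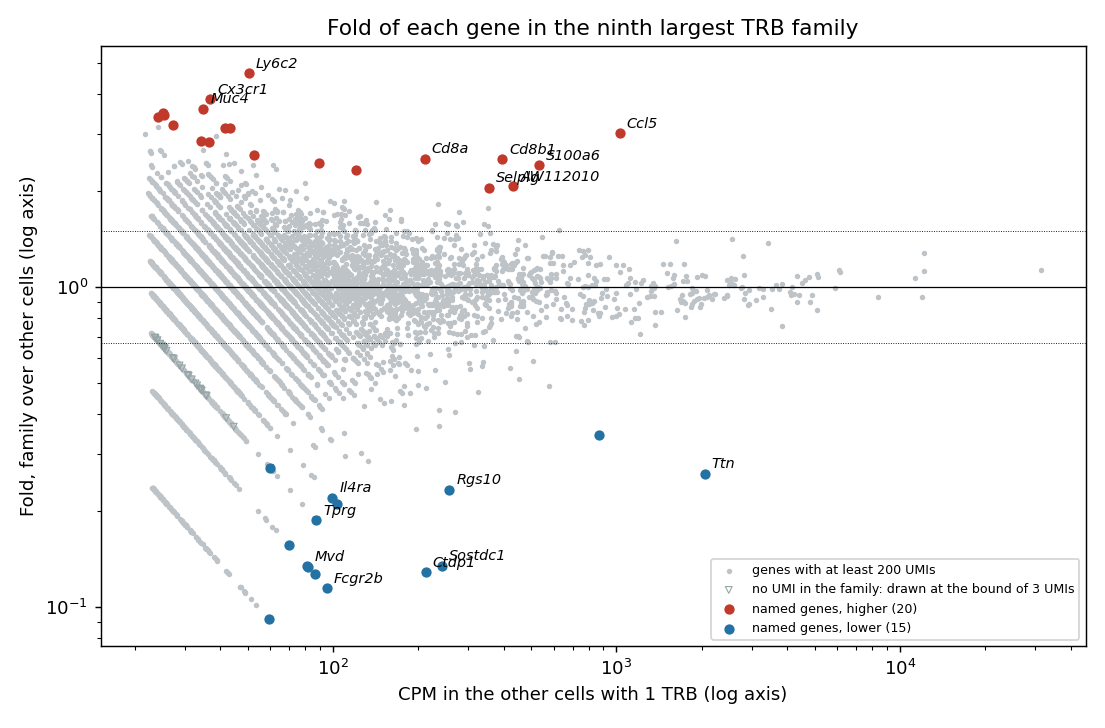
Each point is 1 of 5802 genes, with its level in the 3790 other cells in CPM (horizontal, log axis) and its fold in the family over those cells (vertical, log axis); dotted lines mark 1.5-fold in each direction and open triangles are genes with no UMI in the family, drawn at the bound that 3 UMIs give. Low genes spread widely, while Ccl5, Cd8b1, Cd8a and S100a6 above and Ttn below stand apart from genes of their level.

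The gene with the largest fold among the 20 was Ly6c2 (chr15:75108161-75112066, GRCm38), which encodes Ly6C, a surface antigen found on effector and memory CD8 T cells. It stood at 235 CPM (170 to 316) in the family against 50.5 in the other cells, a fold of 4.65 (3.31 to 6.37). This level was second among the 19 families: the third largest family had 310, the other 17 lay between 0 and 89.5, and the median of the 18 was 9.54. The difference from the third largest family was within counting error (0.758-fold, 0.527 to 1.07). The 43 UMIs came from only 11 cells, 10 of them from 1 cell, and leaving that cell out gave 3.59-fold. The share of cells with a UMI, 12.0%, was no higher than the 12.5% (2 of 16, 1.55% to 38.3%) in 16 barcodes with B cell genes, defined by a UMI of at least 2 of Cd79a, Cd79b and Ms4a1, whose median depth was 2185 UMIs, so the share is not read as a share of expressing cells. The near-identical Ly6c1 had 0 UMIs in the family and 1 in the other cells, and how reads shared by the pair were counted is not stated.

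The 2 chains of the CD8 co-receptor, which binds class I molecules beside the T cell receptor, were both higher. Cd8b1 (chr6:71322788-71337492) stood at 987 CPM (849 to 1142) in the family against 394, a fold of 2.50 (2.14 to 2.91), and Cd8a (chr6:71373427-71379171) at 529 (429 to 646) against 211, a fold of 2.51 (2.03 to 3.08). Both were the highest of the 19 families, where the others ranged from 76.0 to 607 for Cd8b1 and from 45.6 to 351 for Cd8a. The UMIs were spread over 70 cells for Cd8b1 and 49 for Cd8a, with at most 8 and 5 in 1 cell. After each cell was thinned to 1000 UMIs, 53.3% of family cells and 28.8% of the other cells had Cd8b1, and 40.0% against 16.8% had Cd8a. Of the 16 barcodes with B cell genes, 0 had Cd8b1. Among the 15 T cell identity genes these were the only ones past 1.5-fold, beside 9.34% higher and 19.4% lower over all genes. The median of the list was 1.03, and Thy1, whose product was used in the sort, stood at 1.43-fold. It was highest of the 19, though only by 786 against 777 CPM in the next.

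**Figure D2:**
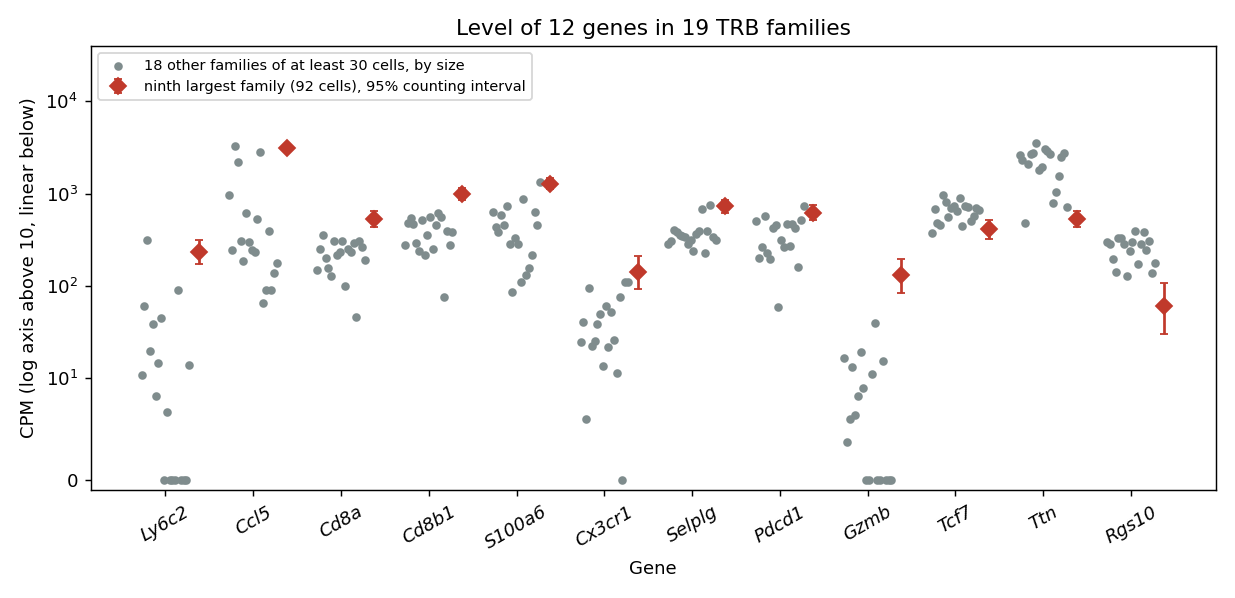
Level of 12 genes in CPM (log axis above 10, linear below) in 18 other families of at least 30 cells (grey points, ordered by size from left to right within each gene) and in the family of 92 cells (red diamond with its 95% counting interval). Cd8a, Cd8b1, Cx3cr1 and Gzmb lie above all 18 other families, Ly6c2, Ccl5, S100a6, Selplg and Pdcd1 are second, and Rgs10 lies below all 18.

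Ccl5 (chr11:83525778-83530518), a chemokine that effector and memory CD8 T cells store and release, gave the most UMIs of the 20 higher genes. It stood at 3093 CPM (2844 to 3359) in the family against 1026 in the other cells, a fold of 3.01 (2.76 to 3.28). The third largest family was at 3281, and the median of the 18 others was 272. The family was uneven: 57 cells had a UMI, 35 had none, and the 10 highest cells held 56.4% of all Ccl5 UMIs, with 80 in 1 cell. At 1000 UMIs per cell 53.3% of family cells and 21.6% of the others had Ccl5; without thinning the shares were 62.0% and 32.9%, against 25.0% in the 16 barcodes with B cell genes.

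As a group, genes of homing and adhesion had a median fold of 0.992. Of 12 tested, 2 were past 1.5-fold higher and 1 lower, beside 9.34% higher and 19.4% lower over all genes tested. Some single genes of migration stood out. Cx3cr1 (chr9:120048683-120068296), the fractalkine receptor of effector T cells, stood at 142 CPM against 36.8, a fold of 3.86 (2.48 to 5.76). It came from 26 UMIs in 17 cells and was highest of the 19 families. Families of 34 and 31 cells followed at 109 CPM each, inside the interval of this family's level (92.7 to 208). S100a6, a calcium-binding protein raised in effector cells, stood at 1282 against 534, a fold of 2.40 (2.10 to 2.74), second to a family at 1336. Selplg, the selectin ligand PSGL-1, stood at 726 against 355, a fold of 2.04. Cxcr6, a chemokine receptor of tissue-resident T cells, stood at 104 against 42.8, a fold of 2.42 (1.44 to 3.84). Its level in the fourth largest family was higher, at 147 CPM, within counting error (0.707-fold, 0.401 to 1.19). Itgb1, the integrin beta-1 chain, was at 70.9 against 161, a fold of 0.441, lowest of the 19.

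Of the other named higher genes, AW112010, which is known from activated T cells, was the most abundant at 895 against 433 CPM. The rest were Muc4, Gpr55, Helz2, Atp8b4, Camk4, Agpat4, Eif2b1, Sidt2, Scamp3, 4930523C07Rik, Tmed3 and Txndc5. Their folds lay between 2.31 for Scamp3 and 3.60 for Muc4, a membrane mucin with 23 UMIs in 18 cells. All 12 were highest of the 19 families, though Gpr55 only by 136.4 against 136.3 CPM in the next. For 4930523C07Rik (104 against 100 CPM) and Agpat4 (81.8 against 72.2) the next family also lay inside this family's interval. The same held for Muc4, Atp8b4, Eif2b1, Sidt2, Scamp3 and Txndc5. With exactly 1 TRA and 1 TRB on both sides AW112010 was at 1.49-fold, and with cells thinned to 1000 UMIs Gpr55 was at 1.48-fold, both just short of the limit.

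Granule genes as a group were near the other cells: of 9 tested, 0 were past 1.5-fold in either direction, with a median of 1.12. Nkg7, a granule membrane protein, was nearest at 3611 against 2559 CPM, 1.41-fold (1.30 to 1.52), and highest of the 19. The next families, at 3517 and 3505 CPM, lay inside the interval of its level here (3342 to 3897). Gzmb, the granzyme that triggers death of target cells, was under the 200-UMI limit and is given as a value. It had 24 UMIs in 14 of 92 family cells and 87 UMIs in 58 of 3790 other cells, 131 against 10.1 CPM, a ratio of 13.0 (7.89 to 20.6). No other family was above 39.2. At 1000 UMIs per cell it was in 12.2% of family cells against 0.849%, and in 0 of the 16 barcodes with B cell genes. Gzma, the other main granzyme, had 0 UMIs in the family and 10.4 CPM in the other cells, which is below what 0 UMIs can exclude here. Of 14 measured NK receptor genes on T cells, 13 were at 0.

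Of 14 memory and stemness genes tested 4 were lower past 1.5-fold and 0 higher, with a median of 0.705, beside 19.4% lower over all genes tested. None of the 14 was lowest of the 19 families, and the list's sum, 4921 CPM, lay within the 4156 to 8399 of the other families. Among these were Id3, a factor of memory precursors (0.504-fold), Il7r, the IL-7 receptor (0.587, 0.252 to 1.16), and Dpp4, with 2 UMIs. Tcf7, the factor of stem-like CD8 T cells, stood at 409 against 607 CPM, 0.674-fold (0.530 to 0.847), just short of the limit. Lef1 at 1.09-fold and Klf2 at 1.06-fold were near the other cells.

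Ttn had the most UMIs among the 15 lower genes. It encodes the giant muscle protein titin, stood at 535 CPM (434 to 652) against 2046, a fold of 0.261 (0.212 to 0.319), and only the third largest family, at 475, was lower. Rgs10, a regulator of G protein signalling, stood at 60.0 against 258, a fold of 0.233, below the 126 of the next lowest family. Sostdc1, a secreted antagonist of BMP and Wnt ligands, had 6 UMIs, 32.7 against 243 CPM. Il4ra, the IL-4 receptor chain, had 4 UMIs, 21.8 against 99.3, and Fcgr2b, the inhibitory Fc receptor, had 2. Tprg and Mrps18a had 0 UMIs. If 3 UMIs over the family are taken as the floor, they were lower by 5.35-fold and 3.67-fold or more. Their exact intervals, which are wider, reached up to 0.231-fold and 0.336-fold. Against the fourth largest family, at 17.5 CPM, the interval of Tprg reached 1.46. Ctdp1, Slc22a15, Ispd, Hdgfl3, Marcksl1 and Ddt were lower with 1 to 5 UMIs each. Mvd, which acts in the mevalonate pathway, was named at 0.134-fold, yet its 10.9 CPM were close to the 10.3 of the median family; without the largest family the fold was 0.922, and without the 2 largest it was 1.00.

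Among 15 factors of effector and exhausted cells 3 were past 1.5-fold higher and 0 lower, with a median of 1.11. Over all genes tested 9.34% were higher and 19.4% lower. The 3 were Maf (1.71-fold), Tox2 (1.67-fold) and Id2 (1.59-fold, 1.14 to 2.17), and the interval of Tox2 spans 1. Id2, which favours effector over memory fate, stood at 224 against 141 CPM and was the highest of the 19. The largest family followed at 214 CPM, within the interval of this family's Id2 level (161 to 303). Tox was at 0.880 and Tbx21, encoding T-bet, at 0.943. Of 8 inhibitory receptors, with a median of 0.761, 1 was higher and 2 were lower, beside the same shares over all genes. Pdcd1, encoding PD-1, was higher at 622 against 353 CPM, 1.76-fold (1.45 to 2.13), while Tigit (0.498) and Btla (0.445) were lower. Cd226, the activating receptor that shares ligands with Tigit, was 1.85-fold higher (1.26 to 2.62). Lag3 was at 0.719.

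Of 10 genes that respond to receptor signals, 4 were lower (Egr1 0.260, Spry2 0.349, Myc 0.417 and Srm with 1 UMI) and 1 was higher (Dusp5 1.56, with an interval that spans 1). The median of the 10 was 0.766, beside 19.4% lower and 9.34% higher over all genes tested. Of 12 AP-1 and heat shock genes 3 were lower and 0 higher, a share near the 19.4% of all genes. Jun was the lowest of the 19 families at 284 against 579 CPM, 0.490-fold (0.365 to 0.643). The next lowest family, at 357, lay inside the interval of this family's Jun level (212 to 372). Fos (0.629) and Fosb (0.585) were the other lower genes. These genes also respond to cell handling, whose part was not tested. The heat shock genes of the list, which do too, included Hspa1b at 0.745 and Dnajb1 at 1.14.

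Interferon-inducible GTPases, which act against intracellular pathogens, were lower in 8 of 11 cases and higher in 0, with a median of 0.597 against 0.961 for all genes tested, of which 19.4% were lower. None of the 11 was lowest of the 19 families, and the list's sum, 584 CPM, lay within the 431 to 1917 of the others. All 11 rest on few UMIs: Igtp had 12 (0.597), Tgtp2 9 (0.504) and Gbp4 8 (0.601), and Gbp7, with 33, was at 1.18. The intervals of Igtp and Gbp4 span 1. The type I interferon list did not share this, with 1 higher and 1 lower of 14 and a median of 1.06. Of 6 cytokine and chemokine genes 3 were lower and 1 was higher, with a median of 0.690, beside 19.4% and 9.34% over all genes tested. Xcl1, a chemokine for cross-presenting dendritic cells, was among the lower ones, at 87.3 against 178 CPM. Among 10 cytokine receptors 3 were lower and 2 higher, with a median of 0.981, beside the same shares over all genes. The lower ones were Il21r (0.484), Ifnar2 (0.402) and Il4ra.

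The glycolysis, oxidative phosphorylation, quiescence and class I groups were near the other cells. None of 15 class I antigen presentation genes, 11 glycolysis genes, 15 oxidative phosphorylation genes or 13 quiescence genes was past 1.5-fold, with medians of 1.09, 0.964, 0.963 and 0.964. Of only 3 mevalonate and sterol genes tested, 2 were lower, with a median of 0.424, beside 19.4% lower over all genes tested. No family cell of 90 had 2 cycle genes after thinning, which allows up to 3.33%, against 0.219% of the other cells. The edited genes cannot be read for editing from their levels: Bcor stood at 0.905-fold and Zc3h12a at 0.991-fold. Of the 8 genes tested among the edited genes and the Bcor complex, Yaf2 was higher, at 1.63-fold, beside 9.34% higher over all genes. Of 15 genes that earlier results of these data tied to larger families, 11 were lower, with a median of 0.271 that became 0.520 when 18 families were weighted equally. Larger families make up most of the other cells, so this direction was fixed by how the genes were chosen and nothing is read from it.

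**Figure D3:**
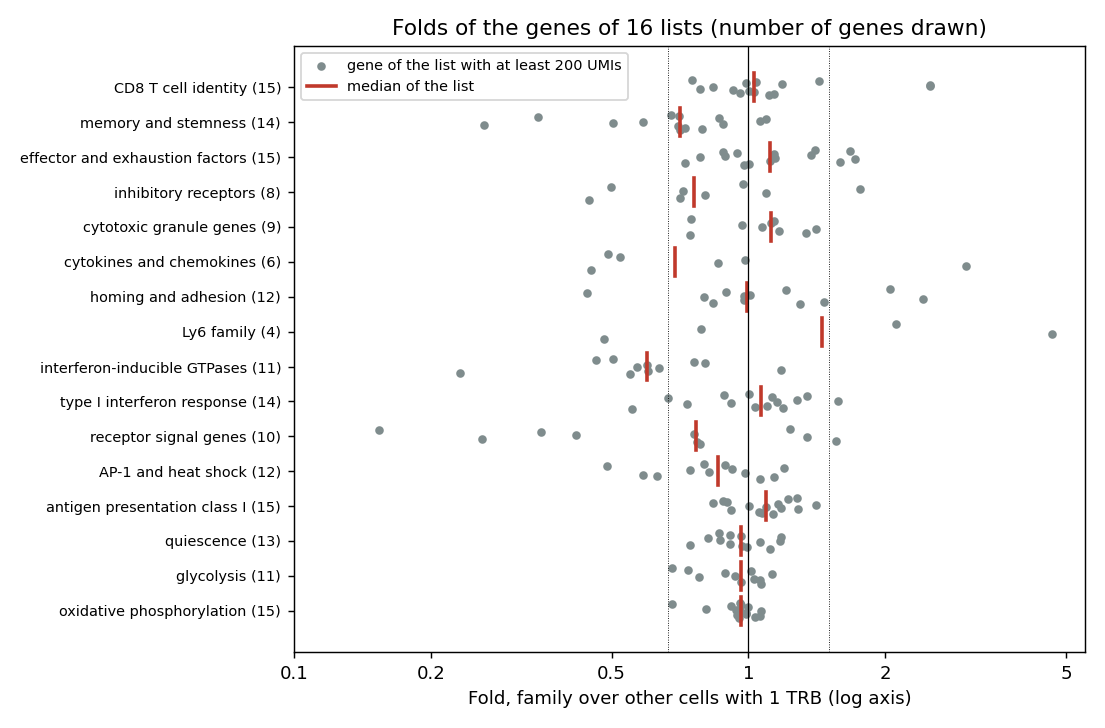
Folds of the family over the other cells with 1 TRB (horizontal, log axis) for the genes of 16 lists with at least 200 UMIs, 1 grey point per gene, with the median of each list as a red bar and dotted lines at 1.5-fold in each direction. The interferon-inducible GTPases, the cytokines and chemokines, and the memory genes have the lowest medians drawn, 0.597, 0.690 and 0.705. Inhibitory receptors and receptor signal genes follow at 0.761 and 0.766. The glycolysis, oxidative phosphorylation and quiescence lists lie close to 1.

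Where the cells fall in the expression space was compared next. All 10338 cells were clustered by expression without TCR genes, and the resulting 11 clusters are called by number. Cluster 9, led by Gzmb, Gzma, Ccl3, Ccl4, Klrd1, Cxcr6 and Ccl5, held 43 of the 92 family cells (46.7%, 36.3% to 57.4%) and 328 of the 3790 other cells (8.65%, 7.78% to 9.59%). This was the highest share of the 19 families. The fourth largest family came next with 43.2% (36.1% to 50.6%), within counting error, then a family of 40 cells with 35.0%. The other 16 were at or below 14.3%. Cluster 1, led by Gpr183, held 24 family cells (26.1% against 21.8%), and cluster 2 held 10 (10.9% against 21.3%). Of all cluster 9 cells with 1 TRB, the family made up 11.6%.

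**Figure D4:**
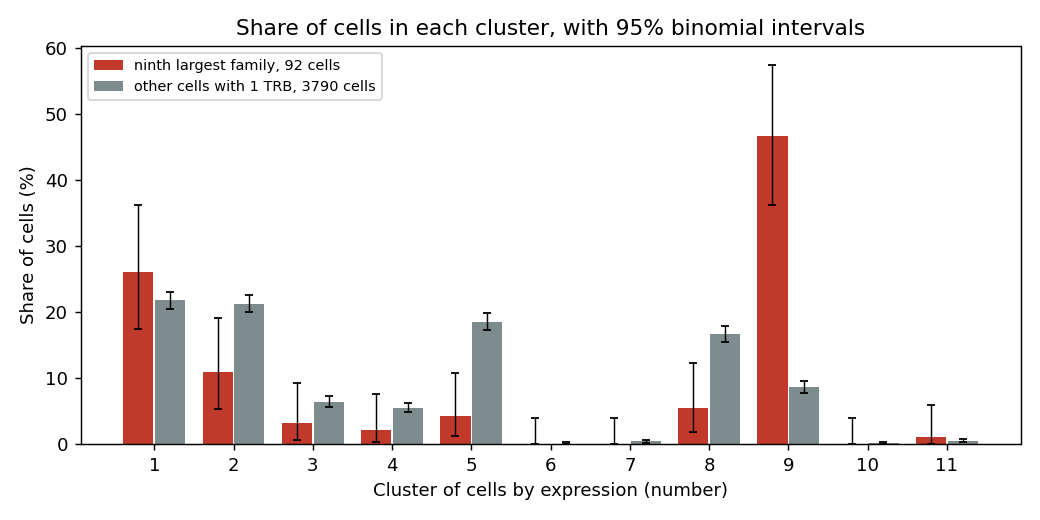
Share of cells in each of 11 expression clusters (percent) for the 92 family cells (red) and the 3790 other cells with 1 TRB (grey); error bars are 95% exact binomial intervals. Cluster 9 holds 46.7% of the family and 8.65% of the other cells, and clusters 2, 5 and 8 hold smaller shares of the family.

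Family and other cells were then compared within and outside cluster 9, as a description, since the clusters were made from the same expression values. Within cluster 9 Cd8a was 2.67-fold higher (1.91 to 3.68) and Cd8b1 2.56-fold higher (2.06 to 3.17) in family cells than in the other cells there. Outside cluster 9 the folds were 2.34 and 1.85. Ttn was lower on both sides, 0.373-fold inside and 0.309-fold outside. Ly6c2 was higher on both sides, 2.08-fold inside (1.09 to 3.72) and 6.40-fold outside (4.20 to 9.40). Ccl5 differed: inside cluster 9 it stood at 5256 CPM in the family against 6837 in the other cells, 0.769-fold (0.699 to 0.844), and outside it was 1.82-fold higher. Pdcd1 was 0.847-fold inside and 1.53-fold outside, and Tcf7 0.838 and 1.07, with both intervals spanning 1. Id2, higher over the family as a whole, was at 0.788-fold inside (0.546 to 1.11) and 0.409-fold outside (0.111 to 1.05). Cx3cr1 was 2.05-fold higher inside and had only 3 UMIs outside. In all, 13 of the 20 higher and 13 of the 15 lower named genes were past 1.5-fold on both sides. Many of these rest on few UMIs: an interval spans 1 on at least 1 side for 5 of the 13 higher genes and for 8 of the 13 lower ones.

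The genes that lead cluster 9 were unequal in the family's cells there. All 24 Gzmb UMIs of the family were in cluster 9, at 261 CPM against 99.4 in the other cells of the cluster, 2.62-fold (1.58 to 4.22). Gzma, Ccl3 and Ccl4 had 0 UMIs in the 43 family cells, which allows up to 32.6 CPM, against 71.4, 174 and 203 in the other 328 cells. A lack of Gzma was not particular to this family. Over whole families, the fourth largest also had 0 Gzma UMIs, in 192 cells. The third largest family held 33 of the 90 Gzma UMIs of the other cells. Against the fourth largest family, Ccl4 was within counting error (0.293-fold, 0.0329 to 1.24), and the interval of Ccl3 reached 0.993. Ccl3 and Ccl4 are chemokines released on activation. Cxcr6 was at 195 against 359, 0.545-fold (0.318 to 0.879), and Coch at 0.395-fold. The median depths were alike, 2022 and 2014.5 UMIs per cell.

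The main results were then read by receptor chains. Cells of the family with its main TRA, with no TRA and with other TRA only were placed in cluster 9 at like shares, 26 of 55 (47.3%), 5 of 12 (41.7%) and 12 of 25 (48.0%). Cd8b1 stood at 1044, 846 and 921 CPM in the 3 kinds, all above the 394 of the other cells. Ccl5 stood at 3463, 2490 and 2522, and S100a6 at 1223, 1503 and 1321. Ly6c2 stood at 196, 423 and 240, where the second value comes from 9 UMIs of 1 cell. Ttn was less even: 402 and 235 in the first 2 kinds and 961 (708 to 1274) in cells with other TRA only, between the rest of the family and the 2046 of the other cells. Trbc1 also differed, at 286 (195 to 403), 282 (103 to 613) and 780 (555 to 1067), all below the 3447 of the other cells. AW112010 was high in the cells with no TRA, at 2866 against 643 and 620 in the first and last kinds. Gzmb stood at 89.2, 94.0 and 240, with intervals that overlap.

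Cells outside the family can carry 1 of its chains. In the 9 cells with the main TRA and no productive TRB, Cd8b1 stood at 1358 CPM, S100a6 at 1426, Ttn at 543 and Ly6c2 at 475, with wide intervals, and 4 of 9 were in cluster 9. Their Ccl5, at 7399 (6076 to 8926) from 4 cells, was above the family's 3093, and Cst7, at 272 against 938, was below it. The 103 cells with another TRB and the family's CDR3 on a contig marked not productive had Cd8b1 at 395 CPM and Ttn at 1780, nearer to the other cells than to the family, and 13 of 103 were in cluster 9 (12.6%). Their Ly6c2, at 106 (69.6 to 154), and Ccl5, at 1357 (1218 to 1508), were above the 50.5 and 1026 of the other cells and below the family. The 17 cells with the main TRA and another family's TRB lay between for Cd8b1 (590) and Ttn (1287). Their Ccl5 stood at 3431, from only 5 of the 17 cells (29.4%, 10.3% to 56.0%).

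**Figure D5:**
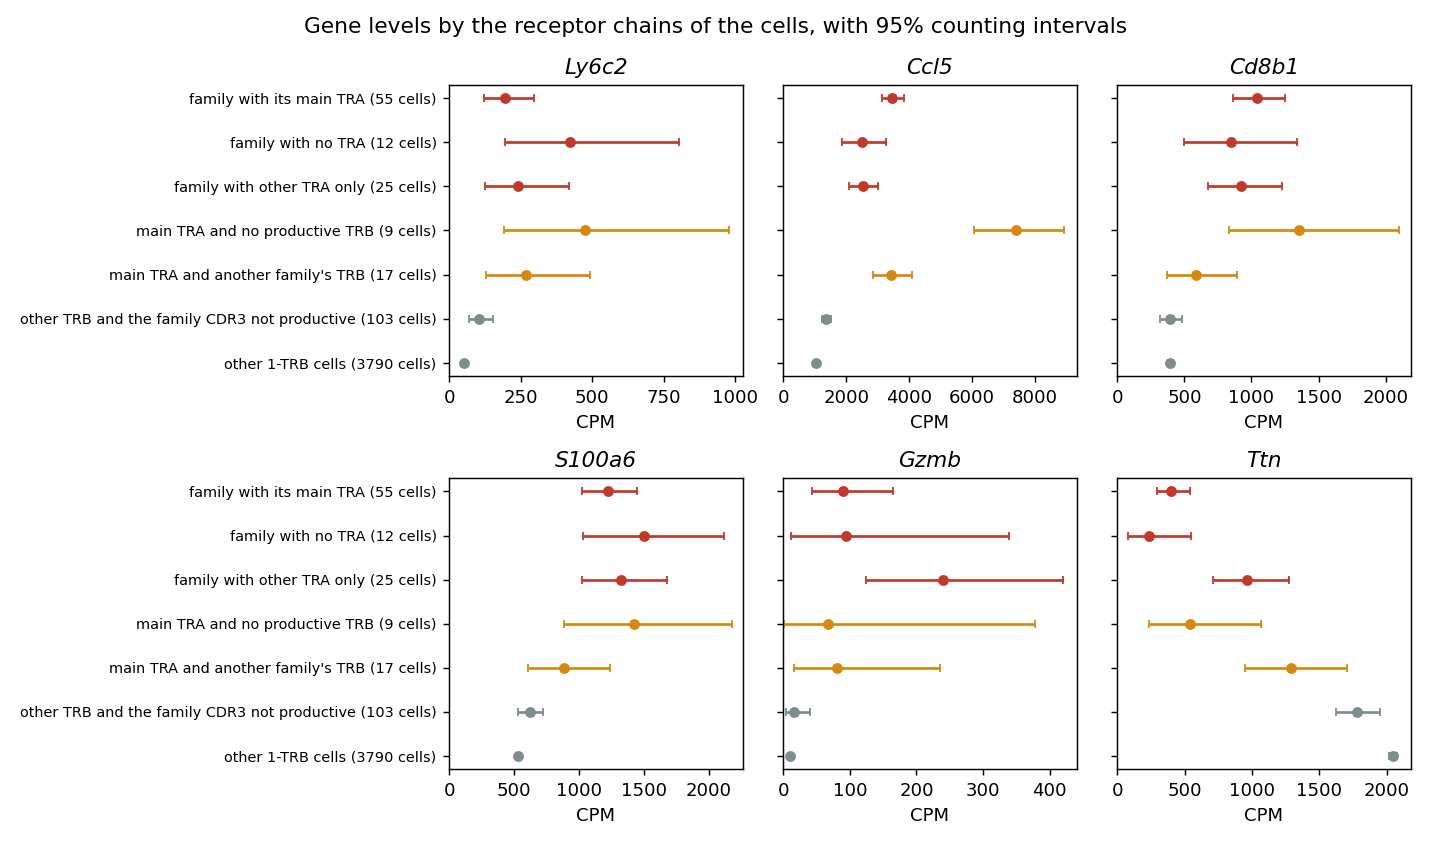
Levels of 6 genes in CPM (linear axes from 0) by the receptor chains of the cells, with 95% counting intervals: 3 kinds of family cell (red), cells with the family's main TRA but not its productive TRB (orange) and other cells with 1 TRB (grey). All 3 kinds of family cell lie above the other cells for Cd8b1 and S100a6 and below them for Ttn; Ttn is highest of the 3 in cells with other TRA only.

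Families 3 and 4 by size were compared with it directly, chosen after their Ly6c2 level and their share in cluster 9 had been seen. The third largest family, of 201 cells, had Ly6c2, Ccl5 and Ttn at levels within counting error of this family's, with folds of 0.758, 0.943 and 1.12. It differed in Cx3cr1, at 5.99 CPM there (23.7-fold, 7.26 to 122), in S100a6 (3.36-fold), Thy1 (3.48-fold), Gzmb at 5.99 and Gzma at 65.9, and only 6.47% of its cells were in cluster 9. The fourth largest family, of 192 cells, shared the placement in cluster 9 and had Pdcd1 and Nkg7 within counting error (1.08-fold and 1.03-fold). It also had Cx3cr1 (1.51-fold, 0.889 to 2.51) and Cxcr6 (0.707-fold, 0.401 to 1.19) within counting error. It differed in Ly6c2, at 19.7 CPM there (11.9-fold, 5.73 to 27.8), in Cd8b1 (2.14-fold) and Cd8a (2.69-fold), in Ttn (0.257-fold) and in Gzmb (9.97-fold, 3.97 to 29.8).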

How the data were processed

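Per the labels' protocols, cells were captured on a Singleron microwell chip, and an RNA and a TCR library were made. Values in the deposited RNA matrix are whole, unnormalized UMI counts for each gene in each barcode, and the deposited contig table holds the count of UMIs and reads of each TCR contig with its length, which was not used. Build GRCm38 and the tools featureCounts 2.0.1, STAR 2.6.1a and cutadapt 1.17 are listed per the submitters' processing notes; for the contig assembler nothing is given in the sources used here.

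Kept cells had 200 or more genes and less than 20% of UMIs from mitochondria: 10338 of 10387 barcodes, with 500 to 17222 UMIs each and no family cell lost. TCR and RNA were joined by barcode; 92 of 95 TCR barcodes with the family's TRB were in the RNA matrix. Cells with more than 1 productive TRB were left out by the rule, and no doublet caller was run. UMIs were summed per family, and scaled only to 1000000 UMIs (CPM). Folds have exact conditional intervals, levels exact Poisson intervals and shares Clopper-Pearson intervals, all at 95% and for counting error only. TCR segment, immunoglobulin and haemoglobin genes were left out of the genes tested. Clusters were made with scanpy 1.11.5 (2000 variable genes, 30 components, 15 neighbours, Leiden resolution 0.8) under Python 3.11.15. The fold calculation was tested on simulated data.

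Named genes are those of the gene lists, plus the 20 higher and 15 lower genes past 1.5-fold whose interval leaves out 1, ranked by the bound nearest 1; higher genes needed UMIs in at least 10 family cells and lower genes at least 10 expected UMIs. Of these, 1 of the 15 lower genes and 1 marker gene are not reported here by name or value, though counts and medians over the named genes and lists include them. Gzma, Ccl3, Ccl4 and the other genes leading cluster 9 were compared inside it after their values were seen. The members and lists were chosen with earlier results of these data known. Alternatives were the cell filter, the receptor rules, the other cells compared, equal weighting of families, thinning to 1000 UMIs per cell, per-cell means, the UMI minimum, the fold, and the clustering settings. Symbols and coordinates come from the files and RefSeq's GRCm38.p6 table. TCR sequences come from the deposited contig table.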

Additional observations from a re-analysis of the deposited data

How the results depend on the processing

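There is 1 library of each kind, so nothing here measures variation between animals or libraries. No paired analysis was possible because there is 1 sample of each kind and no test. The Ly6c2 fold, 4.65, was 3.24 with exactly 1 TRA and 1 TRB on both sides, 6.85 with 18 other families weighted equally and 6.48 with cells thinned to 1000 UMIs. The counts of genes past the fold moved with how many genes were tested and on which cells: 311 higher and 638 lower without the 2 largest families, 286 and 575 of 3149 genes after thinning, 972 and 1800 of 7769 genes at a minimum of 100 UMIs, 145 and 375 of 2968 genes at 500 UMIs, and 119 and 553 at a fold of 2. Mvd moved from 0.134 to 1.00 without the 2 largest families, and the largest held 622 of the 701 Mvd UMIs of the other cells. Why Mvd is high in that family was not tested. Of 420 folds of the 20 higher and 15 lower genes under alternatives, 415 kept their direction and at least 1.5-fold; the exceptions were of AW112010, Gpr55 and Mvd. The alternatives with family cells with the main TRA only, and with other cells without any chain of the family, were chosen after seeing the data; with the first, Ccl5 was 3.37-fold, Ttn 0.196-fold and Ly6c2 3.89-fold. The family's share of cells and its share in the leading cluster (46.7% to 52.2%) stayed within their intervals, although at the lowest cluster resolution the leading cluster also held 24.0% of the other cells. Depth limits low genes most: a gene with 200 UMIs expects 4.17 in the family.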
